A study of Mus musculus with 8 samples.

Results

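The genes that build classical MHC class II molecules and load them were followed in single-cell RNA libraries of mouse spleen. Members were taken by symbol from the gene list of the count matrices: H2-Aa, H2-Ab1, H2-Eb1, H2-Eb2, Cd74 and Ciita, 6 of 32285 genes, and all 6 were found. In the cKO mice Eif3e, a subunit of the translation initiation factor eIF3, carried loxP sites on both alleles (Eif3e fl/fl) together with Cγ1Cre and the Rosa26-YFP LSL reporter. Control mice carried Cγ1Cre and Rosa26-YFP LSL without the floxed Eif3e, so Cre and the reporter were common to every group. Cγ1Cre is driven by transcription of the immunoglobulin γ1 constant region, which begins in activated B cells, and YFP marks cells in which Cre has acted, together with their progeny. All mice were C57BL/6J and 2 months old, and each library pooled the cells of 2 to 3 mice. The tissue label of every library is spleen, while the extraction protocol also names lymph nodes. Either total live splenocytes or sorted YFP+ cells were loaded, which gives for each genotype a total group and a YFP+ group, 4 groups in all with 2 libraries each, 1 in each of 2 batches. Total splenocytes still held YFP+ cells, and whether the total and YFP+ libraries of a genotype and batch came from the same mice is not stated.

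MHC class II molecules present peptides from endocytosed protein to CD4+ T cells, and B cells and dendritic cells express them without further stimulation. H2-Aa and H2-Ab1 encode the α and β chains of I-A. H2-Eb1 encodes the β chain of I-E, whose α chain partner is not made in C57BL/6 mice, and H2-Eb2 lies beside it and encodes a further β chain. Cd74 is the invariant chain, which occupies the groove of new class II dimers and takes them to the endosome, where H2-DM removes its last fragment and H2-O restrains H2-DM. Ciita encodes the coactivator that is recruited by the RFX, NF-Y and CREB proteins on the X and Y boxes of these promoters. It is known as the switch for the whole gene group and is silenced in plasma cells by Blimp-1, the product of Prdm1.

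In the GRCm38.p6 annotation the 4 chain genes lie next to each other on chromosome 17, as H2-Ab1 (ENSMUSG00000073421, chr17:34263227-34269418), H2-Aa (ENSMUSG00000036594, chr17:34282744-34287823), H2-Eb1 (ENSMUSG00000060586, chr17:34305867-34316674) and H2-Eb2 (ENSMUSG00000067341, chr17:34325503-34341410). Ciita (ENSMUSG00000022504, chr16:10480014-10531064) is on chromosome 16. RefSeq promoter sequences were matched for 3 members, H2-Aa, H2-Eb1 and H2-Eb2, and they are shown because the spacing of the X and Y boxes is what these genes share in sequence. Capitals mark GCAAC, a part of the X box, and ATTGG, the core of the Y box, each run being read on the coding strand from 5′ to 3′.
H2-Aa, chr17:34287837-34287934, minus strand: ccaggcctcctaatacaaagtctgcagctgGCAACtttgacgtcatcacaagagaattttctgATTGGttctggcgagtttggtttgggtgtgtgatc
H2-Eb1, chr17:34305746-34305842, plus strand: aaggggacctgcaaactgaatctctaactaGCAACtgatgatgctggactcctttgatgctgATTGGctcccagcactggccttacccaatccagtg
H2-Eb2, chr17:34325513-34325609, plus strand: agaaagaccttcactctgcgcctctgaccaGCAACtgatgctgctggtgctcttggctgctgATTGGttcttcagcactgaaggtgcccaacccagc
From the first base of GCAAC to the first base of ATTGG the distance was 33 bases in H2-Aa, 32 in H2-Eb1 and 32 in H2-Eb2. GCAAC began 81 bases before the listed start in H2-Aa, 91 in H2-Eb1 and 132 in H2-Eb2, whose listed start lies inside the annotated gene. Over 32851 promoters of the same build, each 250 bases before to 50 after the start, both strings stood in this order and 28 to 36 bases apart, on either strand, in 141 (0.429%). GCAAC alone was found on either strand in 35.2% and ATTGG in 37.4%, and the spacing range was set after the member sequences had been read. Of the peptide loading and class I genes with a promoter entry, H2-Oa and H2-Ob also held the spaced pair, while H2-DMa, H2-DMb1, H2-DMb2, Ifi30, Ctss, Lgmn, B2m, H2-K1, H2-D1, Tap1, Tapbp, Psmb8 and Psmb9 did not, which says only that these letters are not so placed in that window. H2-Ab1, Cd74 and Ciita had no promoter entry.

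After filtering, 83704 of 83967 barcodes were kept as cells, and libraries held 71894780 to 105224903 UMIs (unique molecular identifiers, each counting 1 captured transcript). At most 102 barcodes were shared by any pair of libraries. Cell classes were rebuilt from marker genes by clustering without the members, the other H2 genes, the Eif3 genes and the pathway genes other than Prdm1 and Bcl6. Prdm1 was a naming marker of plasma cells and Bcl6 of germinal centre B cells, so their values are not independent of the classes. Every class name means "like". Eif3e itself was counted from 3′ ends at 206 and 265 CPM (the count of a gene scaled by all UMIs of its class and library) in naive B-like cells of the control YFP+ libraries and at 291 and 367 CPM in those of the cKO YFP+ libraries. No source used here names the deleted exons, and a 3′ count outside them does not check the deletion. Naive B-like cells of the genotypes fell in different clusters: 96.3% of those in control YFP+ were in B cluster 1, and 63.5% and 25.4% of those in cKO YFP+ in B clusters 0 and 2. B cells left without a class name were 9.66% of control YFP+ and 2.64% of cKO YFP+ B-lineage cells, and 1.20% and 1.39% of those in the total libraries of control and cKO mice. Libraries of 1 group differed by more than sampling noise. The study's methods call the libraries of a group independent biological replicates, and each group has 1 library per batch. P-values without a block therefore measure the spread between pools of mice and between batches together, not between single animals. With the batch as a block they measure the spread that remains after the batch.

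In control spleens conventional dendritic cells carried the most Cd74, naive B cells came next and plasma cells held the least of any B-lineage class. The control total libraries gave Cd74 in cDC-like cells (the cDC1-like and cDC2-like clusters together) at 15489 ± 2596 CPM, in naive B-like cells at 10812 ± 1322 CPM, in MZB-like (marginal zone) cells at 7967 ± 880.2 CPM, in activated B-like cells at 7142 ± 685 CPM and in pDC-like (plasmacytoid) cells at 6692 ± 496 CPM (mean ± SD, n = 2 for these and the following means). Plasma cell-like cells were at 3487 ± 145 CPM and T-like cells, which should lack the gene, at 750.4 ± 275 CPM. Most neighbours in this order overlapped in their libraries, among them naive, interferon-response, transitional and T-bet+ B-like cells. Separate neighbours were cDC2-like above naive B-like, pDC-like above plasma cell-like, plasma cell-like above monocyte/macrophage-like and monocyte/macrophage-like above NK-like cells. Unlike the chain genes, Cd74 (ENSMUSG00000024610) lies on chromosome 18, at positions 60803849 to 60812652.

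Ciita followed nearly the same order. It was at 392 ± 31.5 CPM in cDC-like, 258 ± 7.57 CPM in naive B-like, 153 ± 12.8 CPM in MZB-like and 126 ± 17.4 CPM in activated B-like cells of the control total libraries. Plasma cell-like cells held 12.4 ± 6.86 CPM, which overlapped the 15.5 ± 5.63 CPM of T-like cells, whereas their Cd74 stood 3384 to 3589 CPM against 556 to 945 CPM. H2-Eb2 had an order of its own. Migratory DC-like cells, only 24 and 21 in the 2 libraries, were at 262 ± 50.9 CPM. Naive B-like cells were at 93.3 ± 7.18 CPM, cDC2-like cells at 88.6 ± 23.2 CPM and pDC-like cells at 4.71 ± 2.20 CPM, the last overlapping T-like cells at 5.42 ± 1.97 CPM. Levels are compared between classes for 1 gene at a time, because a 3′ count has no gene length to set genes side by side.

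The first comparison asked whether YFP+ naive B-like cells of cKO mice differed from those of controls in the antigen presentation genes. Within each batch all 6 members were higher in the cKO library than in the control library. Cd74 was at 9527 and 11685 CPM in control and 11600.3 and 13724 CPM in cKO YFP+ libraries (batch 1 and batch 2, in that order throughout). H2-Aa, the I-A α chain, was at 4622 and 6068 CPM in control and 5709 and 6789 CPM in cKO YFP+ libraries. For both genes the higher control library, from batch 2, lay above the cKO library of batch 1, so the groups overlapped. H2-Ab1, the I-A β chain, was at 2427 and 2991 CPM in control and 3334 and 4015 CPM in cKO YFP+ libraries, and the groups did not overlap. H2-Eb1 was at 3392 and 4739.6 CPM in control and 4696 and 5373 CPM in cKO YFP+ libraries, with overlap through batch 2 of the controls. H2-Eb2 was at 114 and 95.8 CPM in control and 157 and 155 CPM in cKO YFP+ libraries. Ciita, the coactivator, was at 294 and 259.6 CPM in control and 435 and 384 CPM in cKO YFP+ libraries. For H2-Eb2 and Ciita both cKO libraries were above both control libraries.

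**Figure D1:**
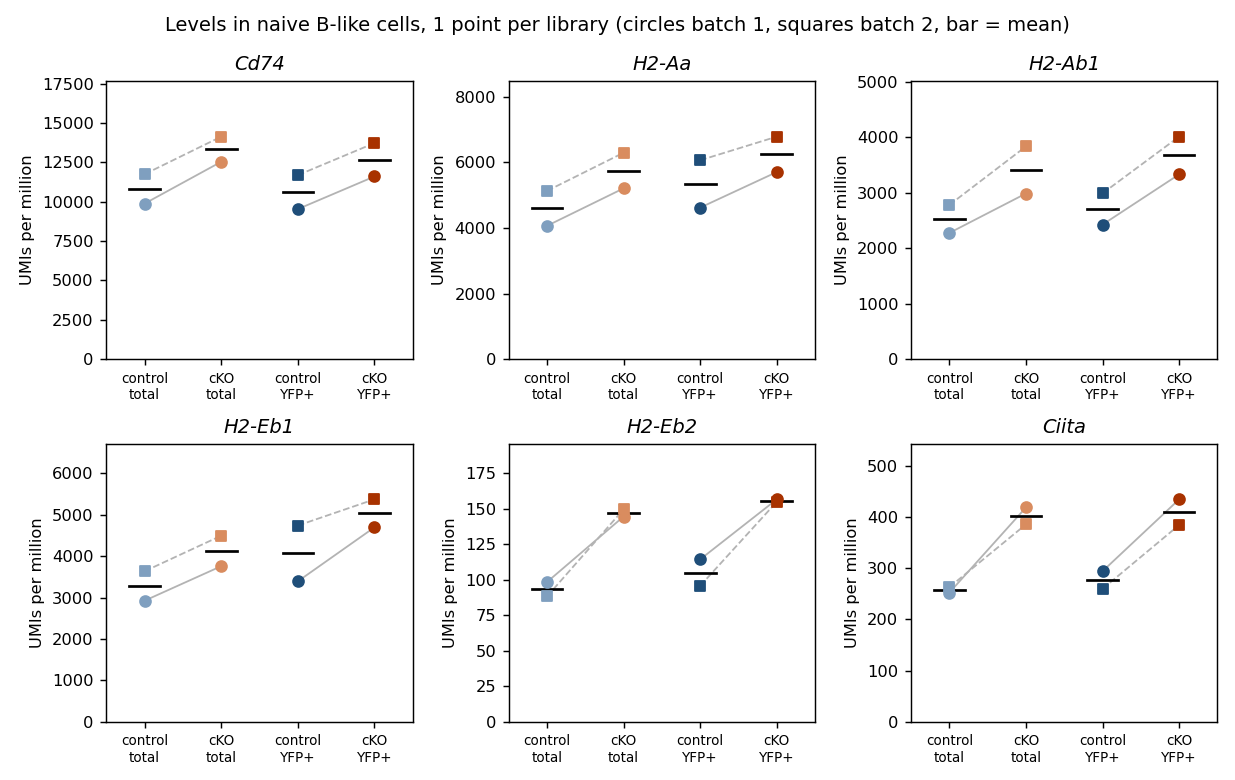
Level of each member in naive B-like cells, in CPM of the class sum, for the 8 libraries in 4 groups. Circles are batch 1, squares batch 2, bars the mean of a group, and lines join libraries of 1 batch; within each batch every cKO point lies above the control point of the same sort.

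On the log2 scale, with TMM scaling, the cKO minus control difference in YFP+ naive B-like cells was 0.71 ± 0.26 for Ciita, 0.72 ± 0.26 for H2-Eb2, 0.59 ± 0.33 for H2-Ab1, 0.45 ± 0.35 for H2-Eb1, 0.41 ± 0.35 for Cd74 and 0.37 ± 0.35 for H2-Aa (± SE). edgeR's quasi-likelihood test called 0 of the 6 members (adjusted p 0.344 to 0.839; 2 at an unadjusted p under 0.05, Ciita and H2-Eb2, and 0 by DESeq2), against 0.664% of all genes tested. With the batch number as a block, which the labels give and which pairs the libraries, all 6 passed, against 17.8% of all genes, and the differences were 0.71 ± 0.10, 0.72 ± 0.11, 0.59 ± 0.066, 0.47 ± 0.070, 0.41 ± 0.051 and 0.38 ± 0.060 in the same order. These correspond to 1.64-fold for Ciita and 1.30-fold for H2-Aa. The median difference of the members was 0.52, and that of all genes tested 0.018. The blocked fit leaves 1 residual degree of freedom, so its errors rest mostly on the spread shared across genes. Without TMM scaling the median of all genes moved to -0.13, and the members' blocked differences to between 0.23 and 0.57. B cluster 14, which held 9.78% of the cKO YFP+ naive B-like cells, did not carry the calls: without it 6 members again passed with the block. B cluster 1 held both genotypes, with 106 and 64 cKO YFP+ cells. There the 6 members summed to 20348 and 25814 CPM in control and 23664 and 26951 CPM in cKO YFP+ libraries. In B cluster 2, with 75 and 55 control cells, the sums were 20679 and 25982 CPM against 24739 and 28895.5 CPM. Over the whole class they were 20376.5 and 25840 CPM against 25930 and 30441 CPM. The part of cluster make-up in the differences was not tested.

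Per cell, the cKO library of each batch was above the control library at the 10th, 50th and 90th percentile of Cd74, while the groups overlapped at the 50th and 90th. The median naive B-like cell held 95.2 to 117 Cd74 UMIs per 10000 in control YFP+ libraries and 116 to 137 in cKO YFP+ libraries. At the 10th percentile these values were 66.1 to 79.6 and 83.9 to 102, and at the 90th 129 to 162 and 154 to 185. After each cell was thinned to 2000 UMIs, a Ciita UMI was found in 38.3 to 42.2% of naive B-like cells over the 4 control libraries and in 50.9 to 55.3% over the 4 cKO libraries. Unthinned shares were 48.5 to 66.3% and 83.5 to 85.8%, at median depths of 2826 to 5259 and 5221 to 6023 UMIs. In T-like cells the thinned share of Ciita was 1.37 to 10.7% at median depths of 3636 to 7588 UMIs. H2-Eb2 was found in 15.9 to 19.3% of thinned control and 23.8 to 27.2% of thinned cKO naive B-like cells, with 0 to 3.33% in T-like cells.

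Total splenocytes gave the same direction in naive B-like cells. Cd74 was at 9878 and 11747 CPM in control and 12536 and 14133 CPM in cKO total libraries. Ciita was at 252 and 263 CPM in control and 419 and 386 CPM in cKO total libraries. For the chain genes the order of the groups was the same. H2-Aa was at 4066 and 5132 CPM in control and 5211 and 6298 CPM in cKO total libraries, and its partner H2-Ab1 at 2276 and 2781 CPM in control and 2988 and 3838 CPM in cKO total libraries. H2-Eb1 was at 2924 and 3636 CPM in control and 3758 and 4495 CPM in cKO total libraries, and H2-Eb2 at 98.4 and 88.2 CPM in control and 145 and 149.6 CPM in cKO total libraries. For each of the 6, both cKO libraries were above both control libraries. edgeR called 0 members without a block (adjusted p 0.381 to 0.999; 2 at an unadjusted p under 0.05, Ciita and H2-Eb2, and 0 by DESeq2), against 0.156% of all genes. With the batch as a block 6 passed, against 17.5%, from 0.41 ± 0.061 for Cd74 to 0.75 ± 0.078 for Ciita and 0.76 ± 0.085 for H2-Eb2 (log2). In cKO total, 48.8% of naive B-like cells were in B cluster 0, 40.4% in B cluster 2 and 9.32% in B cluster 1, against 98.7% of control total cells in B cluster 1. Within B cluster 1 the 6 members summed to 19480 and 23624 CPM in control and 22242 and 26999 CPM in cKO total libraries. Over the whole class the sums were 19494 and 23647 CPM against 25056 and 29299 CPM. Summed over the named B-lineage classes outside plasma cells, 0 members were called in YFP+ libraries without the block (1 at an unadjusted p under 0.05 and 1 by DESeq2) and 0 in total libraries (2 and 2). The sum leaves out B cells without a class name, 9.66% of control YFP+ and 2.64% of cKO YFP+ B-lineage cells. That sum also holds the classes in other proportions, since the cKO YFP+ libraries held 5480 and 7099 naive B-like cells and the control YFP+ libraries 1904 and 2344. With the block 4 and 6 passed, against 6.47% and 0.0615% of all genes without it and 18.8% and 15.2% with it. In total libraries those blocked calls fell to 0 without control total 2 or cKO total 2, to 1 without control total 1 and to 3 without cKO total 1, in the model of all 8 libraries used for leaving 1 out.

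Within a genotype, naive B-like cells sorted as YFP+ were set against those of total splenocytes. The YFP+ libraries also held T-like cells. These were 350 of 9276 and 62 of 11652 cells in control and 373 of 10133 and 29 of 10460 cells in cKO mice. The purity of the sort was not tested. In controls the YFP+ minus total difference passed with the block for 3 members, H2-Eb1 at 0.33 ± 0.040, H2-Aa at 0.25 ± 0.038 and H2-Ab1 at 0.13 ± 0.042, against 7.71% of all genes. In cKO mice 4 passed, H2-Eb1 at 0.37 ± 0.036, H2-Aa at 0.20 ± 0.035, H2-Ab1 at 0.19 ± 0.037 and H2-Eb2 at 0.17 ± 0.046, against 23.2%. H2-Eb1 had the largest sort difference of the members in either genotype, while Cd74 and Ciita passed in neither. Without the block the control difference fell to -0.0080 for H2-Aa and -0.074 for H2-Ab1 when control YFP+ 2 was left out, and H2-Ab1 was at -0.020 without control total 1. The cKO difference fell to -0.024 for H2-Aa and -0.048 for H2-Ab1 without cKO YFP+ 2, and H2-Ab1 was at -0.040 without cKO total 1. Without the block edgeR called 0 in both, with 0 at an unadjusted p under 0.05 and 0 by DESeq2, against 0.00831% and 0% of all genes. The genotype by sort term ran from -0.061 to 0.045 and called 0 members (0 at an unadjusted p under 0.05, 0 with the block and 0 by DESeq2), against 0% of all genes and 2.43% with the block. A difference between the sorts in the size of the cKO effect was not detectable with these libraries.

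The rest of the class II pathway was read from lists of peptide loading genes, promoter factors, regulators of Ciita, turnover genes and class I genes. Without the block edgeR called 0 genes of any list in naive B-like cells of either sort. With the block, 5 of 8 peptide loading genes were higher in cKO YFP+ naive B-like cells and 0 were lower: H2-DMa at 0.98 ± 0.10, H2-DMb1 at 0.35 ± 0.11 and H2-DMb2 at 0.61 ± 0.084, the chains of the peptide exchange factor H2-DM, and H2-Oa at 0.94 ± 0.11 and H2-Ob at 0.55 ± 0.092, the chains of its inhibitor H2-O. Over all genes 17.8% passed in this fit, the share against which each list count stands. Ctss, the protease that trims the invariant chain, was at 0.10 ± 0.094 and did not pass. Of the 7 promoter factors only Rfx5 passed (0.76 ± 0.17), the others, Rfxank, Rfxap, Nfya, Nfyb, Nfyc and Creb1, missing the threshold. Among 12 regulators of Ciita, Il4ra, the interleukin 4 receptor chain, rose by 0.91 ± 0.19 and Bcl6 by 1.09 ± 0.11, and Irf1 was lower at -0.58 ± 0.11. Pax5 and Prdm1 were at -0.012 ± 0.093 and -0.74 ± 0.35 and did not pass. Of the turnover genes, Cd83, which protects surface class II from ubiquitination, was at 0.33 ± 0.091, and March1, the ligase that ubiquitinates it, at -0.36 ± 0.10, and both passed. Of 9 class I pathway genes 4 were higher, B2m, H2-K1, H2-D1 and Tap1, between 0.25 ± 0.075 and 0.43 ± 0.11, B2m being at -0.081 without the block and cKO YFP+ 2.

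Among naive B-like cells of total libraries the blocked fit, which called 17.5% of all genes, called 6 of 8 peptide loading genes, all higher: H2-DMa (0.91 ± 0.077), H2-Oa (0.91 ± 0.086), H2-DMb2 (0.73 ± 0.072), Lgmn (0.59 ± 0.083), H2-DMb1 (0.54 ± 0.079) and H2-Ob (0.32 ± 0.075). Rfx5 was higher at 0.51 ± 0.091 and Creb1 lower at -0.28 ± 0.075. Without the block the Creb1 difference was 0.061 without control total 1 and 0.016 without cKO total 2, and so turned positive. Of the regulators, Bcl6 (0.96 ± 0.093), Il4ra (0.62 ± 0.10) and Irf8 (0.29 ± 0.076) were higher and Irf1 (-0.46 ± 0.088) lower. Cd83 was at 0.41 ± 0.086 and March1 at -0.31 ± 0.075, again on opposite sides. Only Tap1, Tapbp and Psmb8 of the class I genes passed, between 0.26 ± 0.078 and 0.30 ± 0.081, Psmb8 being at -0.015 without the block and cKO total 2. H2-Ea was not analysed here.

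Activated B-like cells, which carry Myc, Egr and Nme1 transcripts, did not move as 1 group. Ciita was at 149.6 and 129 CPM in control and 195 and 155 CPM in cKO YFP+ libraries. Cd74 was at 6322 and 7586 CPM in control and 6586 and 7061 CPM in cKO YFP+ libraries. The Ciita groups did not overlap, while Cd74 was higher in the cKO library of batch 1 and lower in that of batch 2. edgeR called 0 of 6 (0 at an unadjusted p under 0.05 and 0 by DESeq2), against 9.37% of all genes. With the block 2 passed, Ciita at 0.42 ± 0.11 and H2-Eb2 at 0.34 ± 0.13, against 32.7%, so a count of 2 of 6 is near the background. The other 4 lay between 0.053 and 0.17. In the model of all 8 libraries the count was 1 without control YFP+ 1 or cKO YFP+ 1 and 4 without cKO YFP+ 2. It was 1 with DESeq2, without TMM, with doublets removed, at clustering resolution 0.5 or with centring, 4 without the count filter, and 0 at resolution 1.5, where the unblocked H2-Eb2 difference turned to -0.053. In total libraries all 6 passed with the block, from 0.52 ± 0.063 for H2-Aa to 0.90 ± 0.089 for Ciita, against 10.2% of all genes, and 0 without it (0.265%; 3 at an unadjusted p under 0.05).

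The class is made of B clusters 4 and 10, and the members moved differently in each. B cluster 4 held cells with fewer UMIs (median 7251.5 UMIs, led by Mreg, Il4i1 and Bhlhe40) and B cluster 10 cells with more (median 25392 UMIs, led by Fabp5, Socs2 and Tnfsf4). B cluster 10 held 39.4% of the activated B-like cells of cKO YFP+ and 27.5% of those of control YFP+ libraries, against 14.6% and 12.7% for cKO and control in total libraries. In B cluster 4 Ciita was at 195 and 143 CPM in control and 328 and 258 CPM in cKO YFP+ libraries, and Cd74 at 7419 and 8785 CPM in control and 10120.1 and 11373 CPM in cKO YFP+ libraries. All 6 members passed there with the block, from 0.54 ± 0.086 for H2-Aa to 0.93 ± 0.13 for Ciita, against 19.8% of all genes, and 0 without it (1.88%; 3 at an unadjusted p under 0.05).

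In B cluster 10 Cd74 was at 5581 and 6494 CPM in control and 4772 and 5217 CPM in cKO YFP+ libraries, with both cKO libraries below both controls. H2-Aa was at 2726 and 3084 CPM in control and 2383 and 2332 CPM in cKO YFP+ libraries. With the block 3 members passed and all 3 were lower in cKO, Cd74 at -0.21 ± 0.059, H2-Aa at -0.24 ± 0.075 and H2-Ab1 at -0.22 ± 0.069, against 29.3% of all genes. Ciita was at 119 and 115 CPM in control and 127 and 110.3 CPM in cKO YFP+ libraries, a difference of 0.081 ± 0.12 that did not pass. Without the block 0 passed there (24.8%; 0 at an unadjusted p under 0.05). In total libraries B cluster 10 went the other way, with Cd74 at 4128 and 4661 CPM in control and 5325 and 6970.1 CPM in cKO total libraries and Ciita at 62.9 and 47.6 CPM in control and 111 and 119.9 CPM in cKO total libraries. Ciita was called there without a block (1.09 ± 0.22, adjusted p = 0.0426, higher in both batches), against 0.682% of all genes, and 5 members passed with it (3.01%). In total B cluster 4 all 6 passed with the block, against 9.31% of all genes (0.167% and 0 members without it).

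The difference between the clusters was tested with a cluster by genotype term and the library as a block, a test added after the clusters had been seen. All 6 members passed in YFP+ libraries, B cluster 4 minus B cluster 10, against 19.5% of all genes: H2-Eb2 at 1.17 ± 0.25 (adjusted p = 9.93e-05), H2-Ab1 at 0.99 ± 0.27 (0.0029), Ciita at 0.86 ± 0.24 (0.00447), H2-Eb1 at 0.80 ± 0.27 (0.0223), H2-Aa at 0.79 ± 0.28 (0.027) and Cd74 at 0.76 ± 0.28 (0.0398). Of the pathway lists, edgeR called 11 of 38 genes in YFP+ B cluster 10 without the block, against 24.8% of all genes, so the count is near the background. Il4ra at 1.77 ± 0.33, Bcl6 at 1.46 ± 0.22 and Socs1, a cytokine signalling inhibitor, at 1.78 ± 0.28 were higher in cKO. Lgmn, Spib, Spi1, Irf8, Prdm1, March1, Nlrc5 and Psmb9 were lower, among them Irf8 at -0.95 ± 0.15, March1 at -1.42 ± 0.21 and Nlrc5, the class I counterpart of Ciita, at -1.58 ± 0.18. Over YFP+ activated B-like cells as a whole, Ifi30 (1.22 ± 0.29, adjusted p = 0.0331), Il4ra (1.33 ± 0.27, 0.0185), Bcl6 (1.01 ± 0.20, 0.0159) and Socs1 (2.03 ± 0.29, 0.00453) were called higher and Nlrc5 lower (-1.33 ± 0.22, 0.00808). Of all genes 9.37% were called there.

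**Figure D2:**
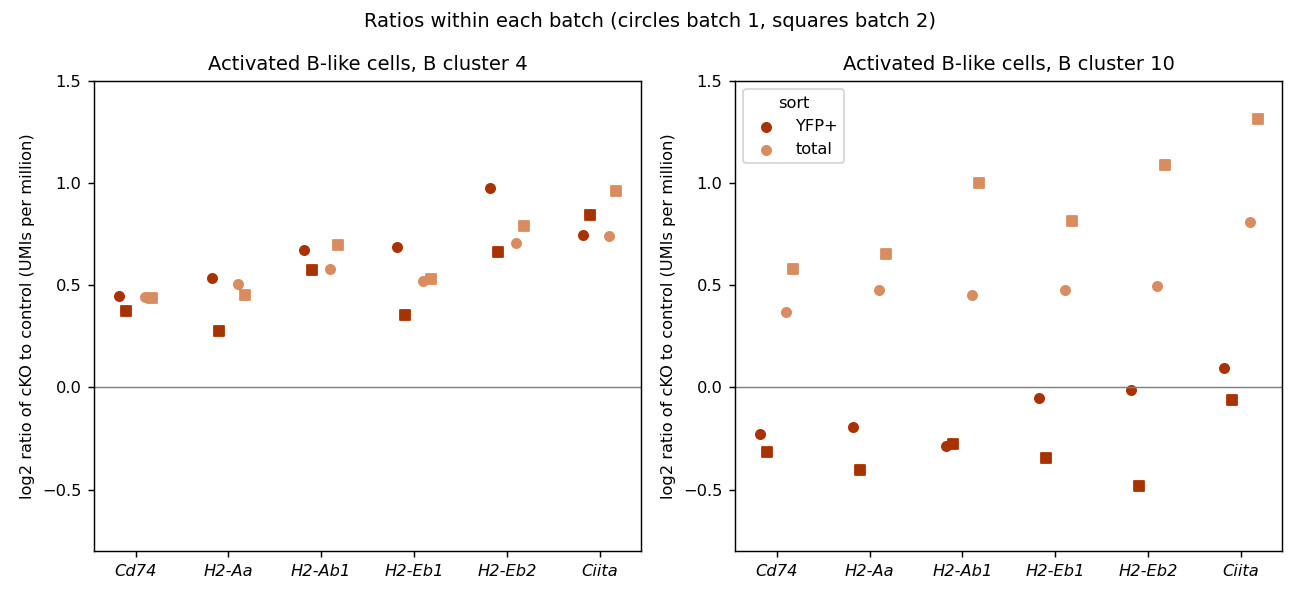
Within-batch log2 ratio of cKO to control CPM for each member in B cluster 4 and B cluster 10, in YFP+ and total libraries. Each point is 1 batch and the line at 0 marks no difference; in YFP+ B cluster 10 the points of Cd74, H2-Aa and H2-Ab1 lie below 0, and in B cluster 4 all points lie above it.

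In GCB-like (germinal centre) cells no member was called between the genotypes. Cd74 was at 8681 and 9419 CPM in control and 8901 and 9254 CPM in cKO YFP+ libraries, and Ciita at 239 and 146 CPM in control and 234 and 197 CPM in cKO YFP+ libraries. The Ciita libraries of the control group enclosed both cKO libraries. edgeR called 0 of 6 (0 at an unadjusted p under 0.05, 0 with the block and 0 by DESeq2), against 0.74% of all genes and 5.09% with the block, and the blocked differences lay between 0.026 and 0.22, with 0.22 ± 0.18 for Ciita. With centring within libraries the unblocked Ciita difference turned to -0.15. Leaving out control YFP+ 1 made 1 call with the block. The term for naive B-like minus GCB-like passed for 4 members, H2-Eb2 at 0.66 ± 0.18 (adjusted p = 0.0107), H2-Ab1 at 0.53 ± 0.16 (0.0186), Ciita at 0.53 ± 0.17 (0.0449) and H2-Eb1 at 0.49 ± 0.15 (0.0336), against 5.18% of all genes. In GCB-like cells the pathway genes H2-DMa (0.62 ± 0.18), Ifi30 (0.61 ± 0.18), Lgmn (0.55 ± 0.18) and Il4ra (0.65 ± 0.20) passed upward with the block, and Irf4, Irf1 (-1.53 ± 0.25) and Nlrc5 (-1.06 ± 0.23) downward. The cKO YFP+ libraries held 127 and 80 GCB-like cells and the control YFP+ libraries 861 and 1589, which limits the precision on the cKO side.

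Cycling B-like cells, from B clusters 9 and 16, gave 0 calls in YFP+ libraries (0 at an unadjusted p under 0.05, 0 with the block and 0 by DESeq2), against 1.21% and 4.08% of all genes. Ciita was at 126 and 92.4 CPM in control and 141 and 130.3 CPM in cKO YFP+ libraries, a blocked difference of 0.36 ± 0.13, and Cd74 at 5698 and 6665 CPM in control and 6048 and 7023 CPM in cKO YFP+ libraries. Total cycling B-like cells gave 0 calls too (0 at an unadjusted p under 0.05; 1.29% and, with the block, 3.71% of all genes), in 29 and 35 control and 120 and 131 cKO cells. T-bet+ B-like cells, a type with Tbx21 and Itgax transcripts, gave 0 calls as well (0 at an unadjusted p under 0.05 and 0 with the block; 0.0645% and 0.406% of all genes). Ciita there was at 282 and 158 CPM in control and 246 and 232 CPM in cKO YFP+ libraries, both cKO libraries within the control range, and Cd74 at 8792 and 9088 CPM in control and 8816 and 10667 CPM in cKO YFP+ libraries. These T-bet+ values rested on 1063 and 1127 control and only 54 and 33 cKO cells. The terms against naive B-like cells called 0 members for either class, with 3 and 1 at an unadjusted p under 0.05, so a smaller cKO effect in cycling or T-bet+ B-like cells than in naive B-like cells was not shown. Background shares were 3.31% and 2.57%.

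Plasma cell-like cells are the class in which Ciita is normally off, and here the cKO libraries carried more of it. Ciita was at 25.2 and 16.4 CPM in control and 63.6 and 49.0 CPM in cKO YFP+ libraries, with both cKO libraries above both controls. Counted as molecules, this rested on 455 and 332 UMIs in control and 165 and 125 in cKO. edgeR called Ciita alone of the 6, at 1.47 ± 0.28 (adjusted p = 0.0168, higher in both batches; 2 members by DESeq2), against 1.08% of all genes. With the block it was 1.48 ± 0.19, the only call, against 2.28%. Without control YFP+ 2, and also without TMM scaling or with all 8 libraries in 1 model, 0 members were called. T-like cells of the same libraries held Ciita at 17.7 and 23.1 CPM in control and 56.3 and 82.3 CPM in cKO, and the part of this in the plasma cell-like difference was not tested. With marked doublets removed Ciita was again the 1 call, but the marking can leave doublets in. H2-Aa was at 851 and 812 CPM in control and 1539 and 1496 CPM in cKO YFP+ libraries, and Cd74 at 3496 and 3216 CPM in control and 4412 and 6378 CPM in cKO YFP+ libraries. Both genes were higher in each cKO library than in either control, and their differences, 0.90 ± 0.31 and 0.73 ± 0.36, did not pass.

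In total libraries plasma cell-like Ciita was at 17.2 and 7.52 CPM in control and 46.0 and 22.3 CPM in cKO total libraries, from 24, 8, 60 and 73 UMIs. With the block 5 members passed, Ciita at 1.43 ± 0.33, against 4.93% of all genes, and 0 without it (0.0649%; 3 at an unadjusted p under 0.05). Immunoglobulin genes took 30.1 to 41.8% of plasma cell-like UMIs over the 8 libraries. With those UMIs left out of the scaling, Ciita was at 91.0 and 72.2 CPM in the cKO against 40.8 and 24.9 CPM in the control YFP+ libraries, and the groups stayed apart. In YFP+ B cluster 12, the larger of the plasma cell-like clusters, Ciita was also called (1.64 ± 0.32, adjusted p = 0.0481, higher in both batches), against 0.452% of all genes, and 3 members passed with the block (2.13%). Prdm1, the repressor of Ciita in plasma cells, was at -0.86 ± 0.34 in YFP+ plasma cell-like cells and was not called. H2-Oa (1.49 ± 0.26, adjusted p = 0.0089), Il4ra (2.49 ± 0.32, 0.0011) and Socs1 (1.97 ± 0.32, 0.00605) were called higher.

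In MZB-like, B1-like and interferon-response B-like cells of either sort and in transitional B-like cells of total libraries, each member was higher in the cKO library of each batch. Over 7 of the other B comparisons (YFP+ MZB-like and T-bet+, total transitional, and B1-like and interferon-response in both sorts), edgeR called 2 of 42 member tests without the block and 34 with it, none of them in T-bet+ B-like cells. B1-like cells held both unblocked calls. Ciita was at 147 and 107 CPM in control and 288 and 300.0 CPM in cKO YFP+ libraries (1.30 ± 0.27, adjusted p = 0.0266, higher in both batches; 2.19% of all genes), and with the block 5 members passed (14.6%). In total B1-like cells Ciita was at 120.2 and 127 CPM in control and 209.5 and 244 CPM in cKO total libraries and H2-Eb2 at 48.4 and 40.6 CPM in control and 82.6 and 118 CPM in cKO total libraries. H2-Eb2 was the call there (1.27 ± 0.29, adjusted p = 0.0444, higher in both batches; 0.315% of all genes), and 6 passed with the block (2.77%). Of the pathway genes, edgeR called Socs1 alone in B1-like cells without the block, at 2.69 ± 0.46 (adjusted p = 0.00984) in YFP+ and 2.24 ± 0.45 (0.023) in total libraries. With the block 7 of 8 peptide loading genes passed in both sorts, all higher in cKO, among them in YFP+ libraries H2-DMa (0.85 ± 0.16), H2-Oa (0.92 ± 0.15) and Ifi30 (1.02 ± 0.16), the lysosomal thiol reductase. The blocked fit also called Il4ra (1.12 ± 0.17), Irf8 (0.81 ± 0.16), Bcl6, Socs1 and Cd83 higher and March1 (-0.93 ± 0.16), Irf4 (-0.62 ± 0.16) and Spi1 (-0.55 ± 0.15) lower in YFP+ libraries, and in total libraries Bcl6 and Socs1 higher and March1 lower (-0.47 ± 0.12). No promoter factor or class I gene passed in either. Leaving out 1 library moved the unblocked count over these classes to 4 without control YFP+ 2 and to 1 without cKO YFP+ 1, cKO YFP+ 2, control total 1, control total 2 or cKO total 2, and the blocked count to 22 without control total 2. The unblocked count was 0 without TMM and 1 with DESeq2, all 8 libraries in 1 model, doublets removed, either other resolution or centring, and the blocked count was 13 with DESeq2.

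MZB-like cells, which respond early to blood-borne antigen, were at 7344 and 8589 CPM in control and 8525 and 10353 CPM in cKO total libraries for Cd74 and at 162 and 144 CPM in control and 199.8 and 227 CPM in cKO total libraries for Ciita. Ciita did not overlap between the groups there. With the block 4 members passed in total libraries, H2-Eb2 at 0.74 ± 0.11 and Ciita at 0.49 ± 0.11 leading, against 2.26% of all genes, and 0 without it (0.0266%; 1 at an unadjusted p under 0.05 and 0 by DESeq2). That blocked count was 1 without control total 2. In YFP+ MZB-like cells 6 passed with the block, between 0.30 and 0.65 (5.63% of all genes; 0 members and 0.363% without it, 1 at an unadjusted p under 0.05). Transitional B-like cells of total libraries gave 6 with the block (2.79%) and 0 without (0%; 2 at an unadjusted p under 0.05), with Ciita at 162 and 159.6 CPM in control and 215 and 243 CPM in cKO total libraries. Interferon-response B-like cells gave 5 in YFP+ (3.1%) and 6 in total libraries (3.84%) with the block, and 0 in both without it (1.05% and 0.262%; 1 and 2 at an unadjusted p under 0.05). B cluster 11, which had no class name, gave 5 with the block in YFP+ libraries (6.36%), between 0.32 and 0.59, and 0 without it (0.424%; 0 at an unadjusted p under 0.05). The other-class DESeq2 count was 1 in all.

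**Figure D3:**
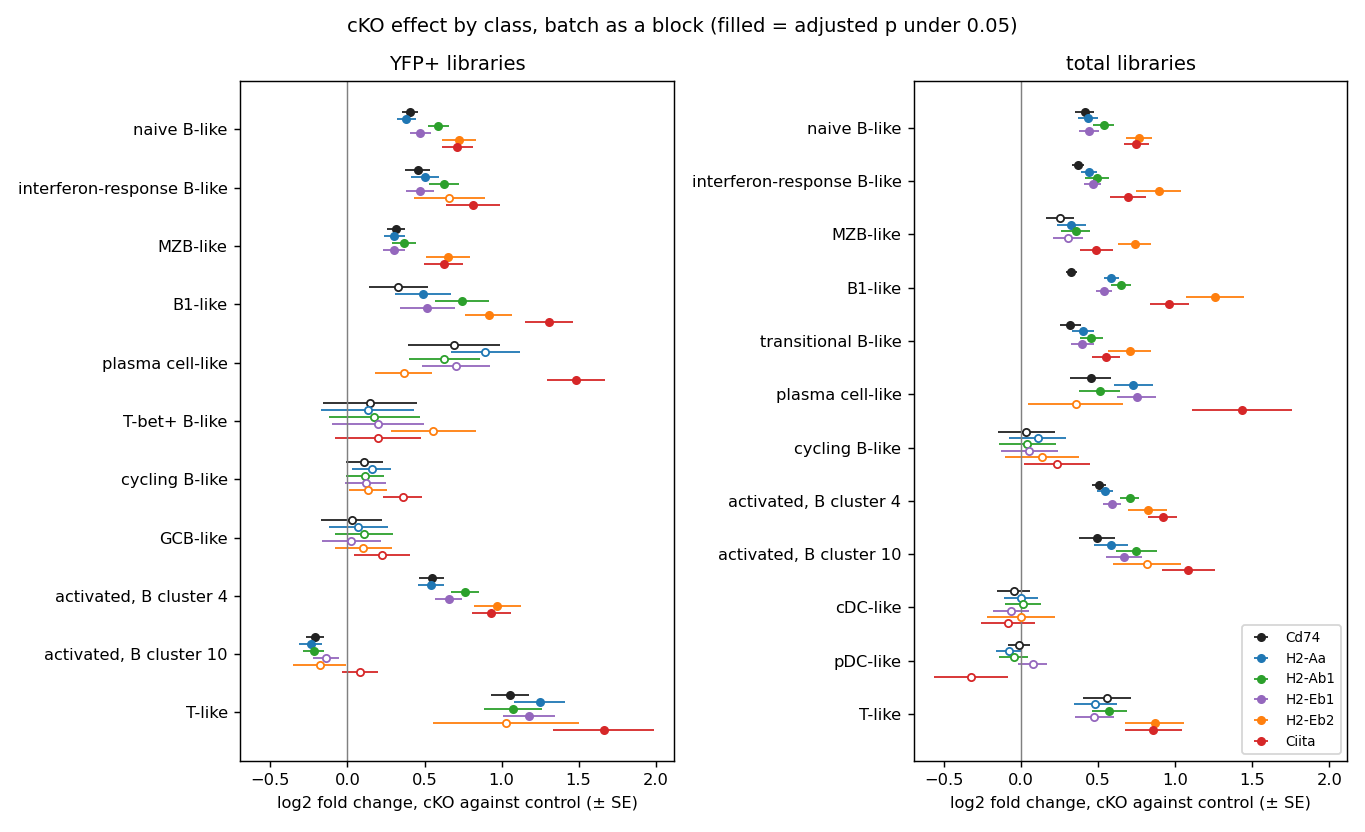
Log2 difference of cKO minus control for each member by cell class, from the fit with the batch as a block, with bars of 1 SE, in YFP+ libraries and in total libraries. Filled points have an adjusted p under 0.05; the points of naive, B1-like and MZB-like cells lie above 0, those of GCB-like cells lie between 0.026 and 0.22 with none filled, and those of cDC-like cells fall on both sides of 0.

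Dendritic cells, a lineage that does not transcribe the immunoglobulin γ1 region, were read from total libraries. The cDC-like cells carried the defining genes Flt3 at 259.7 to 358 CPM and Zbtb46 at 64.3 to 110.0 CPM, with the B-cell gene Cd79a at 90.3 to 151 CPM against 1941 to 2494 CPM in naive B-like cells. Cd74 was at 13654 and 17325 CPM in control and 14441 and 15421 CPM in cKO total libraries, and H2-Aa at 7743 and 10265 CPM in control and 8349 and 9589 CPM in cKO total libraries. Ciita was at 369 and 414 CPM in control and 397 and 341 CPM in cKO total libraries. The groups overlapped for all 6 members, and edgeR called 0 (0 at an unadjusted p under 0.05, 0 with the block and 0 by DESeq2), against 0.0114% of all genes and 0.933% with the block. The differences ran from -0.088 to 0.053 (log2), with -0.058 ± 0.20 for Cd74 and -0.088 ± 0.31 for Ciita. Of the cDC clusters, cDC2-like cells held H2-Eb2 at 47.1 to 138 CPM over the total libraries. In the 2 total libraries with at least 20 cDC1-like cells, control total 1 and cKO total 1, it rested on 8 and 2 UMIs.

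The pDC-like cells carried Siglech at 1767 to 2343 CPM and Bst2 at 2769.6 to 3949.5 CPM. Cd74 there was at 6342 and 7043 CPM in control and 6391 and 6603 CPM in cKO total libraries and Ciita at 125 and 91.4 CPM in control and 119.6 and 53.2 CPM in cKO total libraries. edgeR called 0 of the 5 members that passed its filter (0 at an unadjusted p under 0.05, 0 with the block and 0 by DESeq2; 0.0138% and 0.594% of all genes), H2-Eb2 being too low to test. The naive B-like minus cDC-like term passed for Ciita alone (0.81 ± 0.19, adjusted p = 0.00257; 1.49% of all genes), although all 6 had an unadjusted p under 0.05, and the naive B-like minus pDC-like term passed for Ciita alone too (1.06 ± 0.26, adjusted p = 0.00996; 0.891%). No gene of the pathway lists was called in cDC-like or pDC-like cells, with or without the block. Libraries held 42 to 126 cells of these classes.

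T-like cells should lack these transcripts, and what was counted in them was not equal between the groups. The class was also made of different clusters, with cluster 8 holding 37.2% of control total and 18.9% of cKO total T-like cells, and cluster 9 9.22% of control YFP+ and 31.6% of cKO YFP+ T-like cells and 45.0% of those in cKO total. Cd74 in T-like cells was at 556 and 945 CPM in control and 1047 and 1221 CPM in cKO total libraries and at 818 and 959 CPM in control and 1633 and 2211 CPM in cKO YFP+ libraries. Both cKO libraries were above both controls in each sort. Ciita was at 17.7 and 23.1 CPM in control and 56.3 and 82.3 CPM in cKO YFP+ libraries. With the block 5 members passed in YFP+ T-like cells (2.75% of all genes), between 1.03 and 1.66 with the uncalled member included, and 3 in total libraries (16.9%). Without it 0 passed in both (0.66% and 2.11%; 5 and 2 at an unadjusted p under 0.05). Pathway genes were called in T-like cells without the block, H2-DMa (1.79 ± 0.42, adjusted p = 0.0226), H2-DMb2 (1.81 ± 0.43, 0.0257) and Cd83 (1.60 ± 0.40, 0.0445) in YFP+ libraries and Cd83 (1.49 ± 0.23, 0.0305) in total libraries, each higher in cKO. Each of these values is larger than the blocked one of the same gene in naive B-like cells of that sort. The gap was not tested. With the block the same genes passed, joined in YFP+ libraries by H2-Oa (1.21 ± 0.32) and Ifi30 (1.09 ± 0.24), against 2.75% of all genes. In total libraries H2-DMa (1.24 ± 0.083), H2-DMb1, H2-DMb2, H2-Oa, Ifi30 (1.26 ± 0.092), Lgmn, Rfx5, Prdm1 and Bcl6 also passed upward and Creb1 and Nlrc5 downward, against 16.9%. The 6 B-lineage markers summed to 937 and 1064 CPM in T-like cells of cKO YFP+ and 594 and 574 CPM in those of control YFP+ libraries, and to 633 and 638 CPM against 486 and 765 CPM for cKO against control in total libraries. In naive B-like cells the same markers summed to 7527 to 8687 CPM. The T-like sum of the 6 members reached at most 4827 CPM, in 29 cells of cKO YFP+ 2, against 19494 to 30441 CPM in naive B-like cells. The part of free RNA or of doublets in these T-like values, and of free RNA in the B classes, was not tested.

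The balance between the invariant chain and the other members was read as the share of Cd74 among the UMIs of the 6 genes. In cDC-like cells Cd74 took 39.0% to 40.3%, and in naive B-like cells 44.7% to 50.7%. Plasma cell-like cells were higher at 51.0% to 70.0% over the 8 libraries, and transitional B-like cells were at 55.7% to 59.7% over the 7 libraries with at least 20 of them. Within plasma cell-like cells the genotypes overlapped in either sort, at 56.9 and 55.6% in control against 51.0 and 59.5% in cKO YFP+ libraries and 60.8 and 70.0% against 59.7 and 64.4% in total libraries. Naive B-like cells overlapped in total libraries (48.2% to 50.7%), while in YFP+ libraries the control values, 46.8 and 45.2%, lay above the cKO values, 44.7 and 45.1%. In B1-like cells the control share was above the cKO share in both sorts, at 44.4% to 45.4% against 40.7% in both cKO YFP+ libraries and at least 49.5% against at most 46.5% in total libraries. These shares are descriptions without a test, and 3′ capture can differ between the 6 genes.

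**Figure D4:**
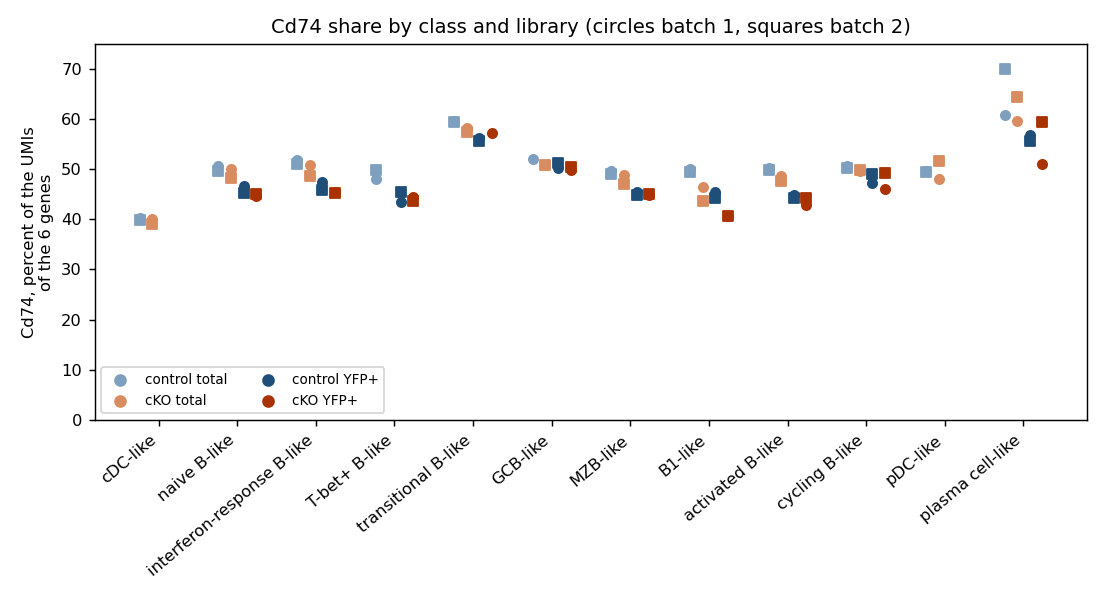
Cd74 as a percent of the UMIs of the 6 genes, by cell class and library. Each point is 1 library with at least 20 cells of the class; transitional B-like points lie at 55.7% to 59.7%, plasma cell-like points at 51.0% to 70.0% and cDC-like points at 39.0% to 40.3%.

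Across classes the members varied together. Over 50 points, each a class in a group, Pearson's r of log2 CPM between pairs of members was 0.78 to 0.99. Over the 33 B-lineage points, which leave out plasma cell-like cells, r was 0.64 to 0.93. Points share libraries, so no p is given. Over all points H2-Eb2 had the lowest values with the others, and over the B-lineage points the lowest were those of Cd74 with H2-Eb2 (0.64) and with H2-Eb1 (0.66). Of 6374 genes with a mean of at least 20 CPM, those most like the mean profile of the members were H2-DMb2 (r 0.92), Gm20513 (0.92), H2-Oa (0.91), H2-DMa (0.91), Wdfy4 (0.88), H2-DMb1 (0.86), Cd40 (0.85), Usp6nl (0.83), Siglecg (0.83) and Cd83 (0.82). Within the B-lineage points H2-DMb2 (0.94), H2-DMb1 (0.91) and H2-Oa (0.90) had the highest values and Usp6nl was at 0.08. Gm20513 is antisense to and overlaps H2-Eb1, and since the strand of counting is not stated, reads of that pair cannot be told apart.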

How the data were processed

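Droplet 3′ libraries (SeekOne DD) of mouse spleen were analysed, 8 in 4 groups of 2. The authors deposited whole-number UMI counts per gene and cell without normalization, the processing notes name GRCm38 and mm10, and no source used here names the aligner. The members and gene lists were chosen with earlier results of these data known. Cells with over 200 UMIs, over 100 genes and at most 10% mitochondrial UMIs were kept, the study's own filter. Counts scaled to 10000 per cell, 2000 variable genes, 30 principal components and 20 neighbours gave Leiden clusters at resolution 1, named from marker lists (3 markers in 10% of cells), with the naming rule settled after the clusters were seen and before group tests. Cells scoring above the median of simulated doublets were marked, which can leave doublets unmarked. Doublets (3.10% to 9.30% marked) were kept. Their marked share was uneven among YFP+ libraries: cKO YFP+ 1 had 7.13% and cKO YFP+ 2 had 9.30%. Lower shares, 4.15% and 4.85%, were marked for control YFP+ 1 and control YFP+ 2. Total libraries ranged from 3.10% (control total 1) to 5.37% (cKO total 1). No other samples' columns were used.

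Counts were summed per class and library (at least 20 cells) and tested in R 4.3.3 with edgeR 4.0.16 (filterByExpr, TMM scaling, a robust quasi-likelihood fit and its F test), with Benjamini-Hochberg adjustment over all genes of a class at 0.05, and checked with DESeq2 1.42.0. Scripts were tested on simulated data first. Replicate numbers are batch numbers in the labels. Same-batch libraries deviated together in B classes (r 0.42 to 0.89 over genes). In T-like cells r was 0.67 between cKO and control total libraries but 0.097 between cKO and control YFP+ libraries. The blocked result is given beside most member counts. For pathway genes it is given where stated. Named genes were all 6 members, every listed pathway gene called in a comparison described (a gene of the regulator list is not reported here), and the 10 genes most like the members. Adjusted p-values without another tool named are edgeR's. Depth was 71894780 to 105224903 UMIs per library and 5250 to 6810.5 per cell (median). Alternatives were the block, DESeq2, no TMM, no count filter, all 8 libraries in 1 model, doublets removed, a stricter cell filter (1000 UMIs, 500 genes, 5%), resolutions 0.5 and 1.5, centring within libraries and leaving out each library. Python 3.11.15, numpy 2.4.6, scipy 1.17.1, pandas 2.3.3, igraph 0.11.9, limma 3.58.1 and matplotlib 3.10.9 were used.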

Additional observations from a re-analysis of the deposited data

Results flagged for a closer look

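Several cKO minus control differences were not alike in 2 classes or in the 2 sorts. In YFP+ libraries the naive B-like effect exceeded the GCB-like effect by 0.53 ± 0.16 for H2-Ab1 (edgeR adjusted p = 0.0186), 0.49 ± 0.15 for H2-Eb1 (0.0336), 0.66 ± 0.18 for H2-Eb2 (0.0107) and 0.53 ± 0.17 for Ciita (0.0449), all as log2 ± SE from a class by genotype term. Against B cluster 10 the term passed for H2-Eb2 alone of the 6, at 0.83 ± 0.24 (0.0062), the other 5 having adjusted p from 0.0735 to 0.274, and 16.9% of all genes passed, so a count of 1 of 6 is near the background.

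Between the activated clusters, B cluster 4 minus B cluster 10, the YFP+ effect differed by 0.79 ± 0.28 for H2-Aa (0.027), 0.99 ± 0.27 for H2-Ab1 (0.0029), 0.80 ± 0.27 for H2-Eb1 (0.0223), 1.17 ± 0.25 for H2-Eb2 (9.93e-05), 0.76 ± 0.28 for Cd74 (0.0398) and 0.86 ± 0.24 for Ciita (0.00447).

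In total libraries the naive B-like effect on Ciita exceeded that in cDC-like cells by 0.81 ± 0.19 (0.00257) and that in pDC-like cells by 1.06 ± 0.26 (0.00996).

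In B cluster 10 the sorts went opposite ways. Both cKO YFP+ libraries lay below both control YFP+ libraries, with a log2 ratio of the mean CPM of -0.30 for H2-Aa, -0.28 for H2-Ab1, -0.21 for H2-Eb1, -0.27 for H2-Eb2 and -0.27 for Cd74, while both cKO total libraries lay above both control total libraries. The difference between the sorts in that cluster was not tested.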

How the results depend on the processing

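Of the members' log2 differences without the block, 1560 values under an alternative kept direction and side of the threshold. A further 75 became calls, 67 of them by adding the block, 16 ceased to be calls and 111 changed sign. The cause of the sign changes was not tested. With 2 libraries a group, a member without a call in the unblocked test is not shown to be unchanged, and calls of the blocked fit rest on 1 residual degree of freedom. The block moved the calls to 6 in YFP+ and 6 in total naive B-like, 2 in YFP+ activated and 4 in total MZB-like cells. It moved them to 4 and 6 in the sum of named B-lineage classes (YFP+ and total). In the control and cKO sort comparisons it moved them to 3 and 4, and in the other B classes to 34 from 2. The blocked counts of most remaining comparisons are given with them. Without the block, YFP+ plasma cell-like calls (1) became 2 with DESeq2 and 0 without TMM or with all 8 libraries in 1 model, and 0 to 1 when 1 library was left out (0 without control YFP+ 2). Centring gave 1 in cycling, and DESeq2 gave 1 in YFP+ and 2 in total libraries for the sum of named B-lineage classes. The other B classes (2) had 0 without TMM and 1 each with DESeq2, all 8 libraries, doublets removed, either resolution or centring, and 1 to 4 when leaving out a library. The all-8 model leaves 1 library out in each blocked range below.

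With the block, YFP+ activated calls (2) were 1 with DESeq2, without TMM, with doublets removed, at resolution 0.5 or with centring, 4 without the count filter, 0 at resolution 1.5 and 6 in B cluster 4 alone, and 1 to 4 leaving out a library. Cycling (0) had 1 at resolution 1.5 and 2 with centring, and GCB-like (0) 0 to 1 leaving out a library. Plasma (1) had 2 with DESeq2, without the count filter, with doublets removed or with centring, 4 with all 8 libraries and 2 to 4 leaving out a library. The sum of named B-lineage classes had 1 with DESeq2 in YFP+, and 0 to 3 in total libraries leaving out a library. Total MZB-like (4) had 1 with DESeq2, at resolution 0.5 or with centring, 2 without the count filter, with doublets removed or at resolution 1.5, and 1 to 6 leaving out a library. The control sort comparison (3) had 0 with DESeq2 and 1 with centring, the cKO sort comparison (4) 1 without TMM, and the other B classes (34) 13 with DESeq2 and 22 to 34 leaving out a library.

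Log2 differences that changed sign include H2-Eb2 in YFP+ activated B-like cells, a call with the block. In YFP+ activated B-like cells these were, without TMM H2-Aa -0.051 and Cd74 -0.027, with doublets removed H2-Aa -0.019, at resolution 0.5 H2-Aa -0.024 and Cd74 -0.0072, at resolution 1.5 H2-Aa -0.20, H2-Eb1 -0.0089, H2-Eb2 -0.053 and Cd74 -0.14. In YFP+ GCB-like cells these were, with centring H2-Aa -0.020, H2-Ab1 -0.030, H2-Eb1 -0.15, H2-Eb2 -0.23, Cd74 -0.22 and Ciita -0.15, without the count filter H2-Eb1 -0.046 and Cd74 -0.041, with doublets removed H2-Eb1 -0.0031. In cDC-like cells these were, with the replicate block H2-Aa 0.00053 and H2-Eb2 -0.00097, with doublets removed H2-Aa 0.0023, without the count filter H2-Ab1 -0.0050, at resolution 0.5 H2-Ab1 -0.0072, at resolution 1.5 H2-Ab1 -0.12, H2-Eb2 -0.23 and Ciita 0.019, with centring H2-Ab1 -0.15. In the control sort comparison these were, without TMM Cd74 -0.028, without the count filter Cd74 -0.011, at resolution 1.5 Cd74 -0.078. In the cKO sort comparison these were, without TMM Cd74 -0.075, with the stricter cell filter Cd74 -0.0019, at resolution 1.5 Cd74 -0.0086. In the genotype by sort term these were, at resolution 1.5 H2-Aa 0.039, Cd74 0.10 and Ciita 0.029, with centring H2-Aa 0.073, H2-Eb1 -0.022, Cd74 0.026 and Ciita 0.058, without TMM H2-Eb1 -0.023, with DESeq2 Cd74 0.0075, without the count filter Cd74 0.029, with doublets removed Cd74 0.0091. Leaving out 1 library at a time gave ranges across 0 for YFP+ activated B-like cells H2-Aa -0.14 to 0.30, H2-Eb1 -0.067 to 0.45 and Cd74 -0.087 to 0.30, for YFP+ cycling B-like cells H2-Eb1 -0.073 to 0.32 and Cd74 -0.068 to 0.31, for YFP+ GCB-like cells H2-Aa -0.020 to 0.15, H2-Eb1 -0.12 to 0.17, H2-Eb2 -0.077 to 0.29, Cd74 -0.10 to 0.15 and Ciita -0.066 to 0.52, for cDC-like cells H2-Aa -0.20 to 0.22, H2-Ab1 -0.15 to 0.20, H2-Eb1 -0.25 to 0.13, H2-Eb2 -0.78 to 0.54, Cd74 -0.22 to 0.14 and Ciita -0.21 to 0.029, for pDC-like cells H2-Aa -0.20 to 0.053, H2-Ab1 -0.12 to 0.033, H2-Eb1 -0.036 to 0.18, Cd74 -0.075 to 0.055 and Ciita -0.99 to 0.15, for the control sort comparison H2-Aa -0.0080 to 0.48, H2-Ab1 -0.074 to 0.32 and Cd74 -0.20 to 0.19, for the cKO sort comparison H2-Aa -0.024 to 0.42, H2-Ab1 -0.048 to 0.46 and Cd74 -0.21 to 0.19, for the genotype by sort term H2-Aa -0.29 to 0.23, H2-Ab1 -0.18 to 0.30, H2-Eb1 -0.25 to 0.35, H2-Eb2 -0.12 to 0.033, Cd74 -0.22 to 0.23 and Ciita -0.088 to 0.020, for YFP+ T-bet+ B-like cells H2-Aa -0.045 to 0.30, H2-Ab1 -0.063 to 0.41, Cd74 -0.012 to 0.29 and Ciita -0.12 to 0.60, for YFP+ naive B-like cells B2m -0.081 to 0.58, for total naive B-like cells Creb1 -0.64 to 0.061 and Psmb8 -0.015 to 0.50. The naive B-like cKO differences of the 6 members changed sign under no alternative in either sort. Class levels, which had no test, were marked as moved in 248 values under an alternative and as the same in 946. On a TMM-scaled denominator 98 level values moved and 202 did not.

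No fit was made for YFP+ transitional, memory or total T-bet+ B-like cells, for T-bet+ and total cycling B-like cells at resolution 0.5, or for leaving a library out of the blocked dendritic cell comparisons, for want of cells or residual degrees of freedom.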

Other observations

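Monocyte/macrophage-like cells of total libraries gave 0 calls of 5 members tested (0 at an unadjusted p under 0.05 and 0 with the block; 0% and 0.332% of all genes), with differences from 0.57 to 0.86 (log2) and Cd74 at 1994 and 2100.4 CPM in control and 4478 and 1634 CPM in cKO total libraries. The batches went opposite ways: within batch 1 the cKO to control log2 ratio of Cd74 was 1.17 and within batch 2 -0.36. The class also fell in different clusters, with myeloid cluster 10 holding 13.7% of its control total and 48.1% of its cKO total cells. B clusters 9 and 16, which make up the cycling class, gave 0 calls each in YFP+ libraries without the block, with 1.46% and 0.718% of all genes called. With the block 5.11% and 2.7% of all genes passed, and the members' blocked counts are not given for these clusters.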
